A study of Homo sapiens with 18 samples.

Results

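The comparison described here asks which RNAs were recovered differently by an R-domain mutant of ADAR3 and by wild-type ADAR3. It covers the 13789 genes whose mean normalized count was at least 50 in the authors' deposited table of R-mutant over ADAR3 WT, out of 60666 gene IDs in that table. The cells were of the human glioblastoma line U373-MG, and were transduced with a retrovirus that expressed FLAG-tagged ADAR3 WT or the FLAG-tagged R-mutant, and were kept in medium with G418. Cells carrying an empty resistance vector served as the control in other tables. Cells were crosslinked with UV light, and RNA was sequenced from the lysate (input) and after immunoprecipitation (IP) of ADAR3. The 4 groups used here, ADAR3 WT input, ADAR3 WT IP, R-Mutant input and R-Mutant IP, held 3 libraries each. Both proteins were exogenous, so the values describe overexpressed protein in a tumour line.

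ADAR3, the product of ADARB2, belongs to the family of adenosine deaminases acting on RNA, which bind double-stranded RNA and convert adenosine to inosine. ADAR3 is found mainly in brain and has shown no deaminase activity of its own, and it can compete with the active family members for their substrates. Besides its double-stranded RNA-binding domains it has an arginine-rich R-domain near its amino terminus, through which it can also bind single-stranded RNA. In RNA immunoprecipitation, the recovery of an RNA is read as its amount in the IP over its amount in the input. The fold change used here is read as the ratio of that enrichment with the R-mutant to that with ADAR3 WT, on a log2 scale. The labels do not state this reading, under which a negative value means lower enrichment with the R-mutant. Counts were normalized between libraries, so each value is relative to the other RNAs, and a loss of binding shared equally by all RNAs would not appear.

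The deposited tables name genes by Ensembl ID alone, and none of the 59792 rows of the RefSeq table used here carries an Ensembl ID. Symbols and RNA classes are therefore not given, members are not matched to sequences, and glioblastoma markers were not checked. The 2 genes farthest below 0 and the 2 farthest above 0 by fold change over standard error are given by ID, and the others by their values. The depth of each library is unknown, since single-library values were not analysed here. The authors' mean normalized count and standard error stand in for it. Mean normalized counts of the 13789 genes had a median of 933.9, with quartiles of 283.0 and 2323.

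For most RNAs, IP enrichment differed little between the R-domain mutant and wild-type ADAR3. In the authors' deposited table the 13789 genes had a median log2 fold change of -0.02 with quartiles of -0.11 and 0.06. Their 1st and 99th percentiles were -0.48 and 0.42. The median absolute log2 fold change was 0.08, while the median standard error was 0.22. In 12530 genes, or 90.9%, the fold change did not reach 1 standard error. Differences of at least 2-fold were seen for 25 genes, of which 20 were lower and 5 were higher with the R-mutant. Of the 25, 16 were in the lowest of 5 equal groups by mean normalized count. Over all tested genes, which include those of lower counts, the 1st and 99th percentiles were -2.01 and 2.03.

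A single gene passed the test of its fold change. In a two-sided normal test of log2 fold change over standard error, with Benjamini-Hochberg adjustment at 0.05 over all 23385 tested genes, 1 of the 13789 genes was called lower and 0 were called higher with the R-mutant. The called share of all tested genes was 0.00428%. At an unadjusted p under 0.05 there were 74 of the 13789 genes, 53 lower and 21 higher, which is 0.537%. The share among all tested genes was close to it, at 0.624%. Both shares lie well under the 5% that a normal statistic gives without any difference. Across the 13789 genes the standard deviation of fold change over standard error was 0.602, so the deposited standard errors were wide beside the scatter of the fold changes. The likelihood ratio test that the authors deposited covers more terms than this fold change, and 10445 of the 13789 genes, or 75.7%, passed it at an adjusted p of 0.05 in the authors' deposited table, against 51.1% of all tested genes.

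The size that could have been called sets the limit of this count. For 1 gene alone to pass the adjusted threshold, its fold change had to reach 4.74 standard errors. At the median standard error this is a log2 fold change of 1.05, or 2.07-fold. At the 5th percentile of the standard errors it is 0.77. Where no other gene passes, an estimated fold change below 4.74 of its own standard errors is not called. That limit applies to the estimate and is not a floor on the true shift.

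**Figure D1:**
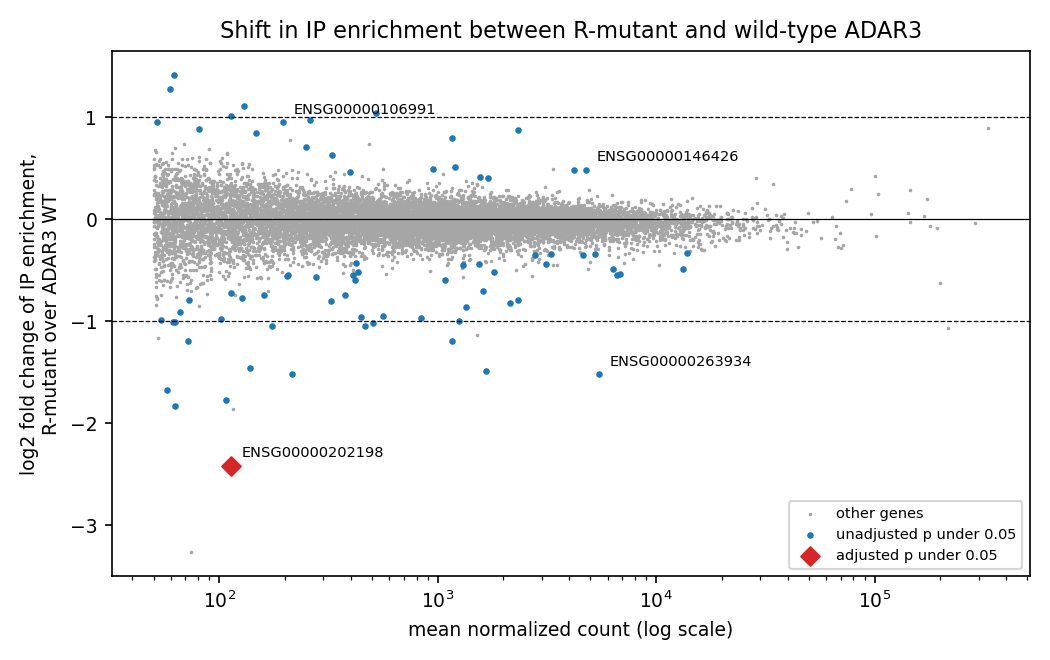
Log2 fold change of IP enrichment in R-mutant over ADAR3 WT (vertical axis) against mean normalized count on a log scale (horizontal axis), 1 point for each of the 13789 genes, with dashed lines at a 2-fold difference. The 74 genes at an unadjusted p under 0.05 are blue, the 1 called gene is a red diamond, and most points lie close to 0 at every level.

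The called gene was ENSG00000202198. Its log2 fold change in the authors' deposited table of R-mutant over ADAR3 WT was -2.41 ± 0.44 (standard error), a 5.33-fold lower enrichment with the R-mutant, with a 95% interval from 2.92-fold to 9.71-fold lower (adjusted p 0.00111 by the normal test). Its mean normalized count of 113 was in the lower part of the range. Against the empty vector, the authors' deposited tables gave it log2 fold changes of -1.05 ± 0.54 for ADAR3 WT (adjusted p 0.199 by the normal test) and of -3.47 ± 0.54 with the R-mutant (adjusted p 1.79e-08). The RNA was recovered less with the R-mutant than with ADAR3 WT, and less than with the empty vector. Between the inputs of ADAR3 WT and control, the authors' deposited table gave -0.14 ± 0.42, with an interval from -0.97 to 0.70. For this and every other gene, no comparison of the R-mutant input with another input was available. The part of input in this shift was therefore not tested.

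The next lowest gene, ENSG00000263934, was among the abundant RNAs, with a mean normalized count of 5477. Its log2 fold change in the authors' deposited table was -1.52 ± 0.33, or 2.87-fold lower with the R-mutant, with a 95% interval from 1.83-fold to 4.51-fold lower. It did not pass the normal test (adjusted p 0.0583). With ADAR3 WT its enrichment stood close to that of the empty vector, where the authors' deposited table gave 0.19 ± 0.37 (adjusted p 0.817 by the normal test). With the R-mutant it was lower than with the empty vector, and the authors' deposited table gave -1.32 ± 0.30 (adjusted p 0.00025 by the normal test). Between the inputs of ADAR3 WT and control its value in the authors' deposited table was 0.56 ± 0.75, with an interval from -0.91 to 2.03.

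No gene was called higher with the R-mutant. The gene farthest above 0 by fold change over standard error was ENSG00000106991, for which the authors' deposited table gave 0.95 ± 0.26, or 1.93-fold higher, with a 95% interval from 1.35-fold to 2.75-fold (adjusted p 0.742 by the normal test). This RNA was of low abundance, with a mean normalized count of 196. It stood in the authors' deposited tables at -0.04 ± 0.33 with ADAR3 WT against the empty vector and at 0.92 ± 0.36 with the R-mutant against the empty vector, which did not pass (adjusted p 0.0717 by the normal test). Between the inputs of ADAR3 WT and control the authors' deposited table gave 0.58 ± 0.26, and input enters the ratio, as read here, as the denominator. The part of input in its shift was not tested.

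The gene next to it, ENSG00000146426, had a small and precise value of 0.48 ± 0.16 in the authors' deposited table, or 1.40-fold with an interval from 1.12-fold to 1.75-fold (adjusted p 1.00 by the normal test). It was among the genes recovered far less with either protein than with the empty vector. There it stood at -3.14 ± 0.19 for ADAR3 WT, and at -2.64 ± 0.22 for the R-mutant, in the authors' deposited tables. The authors' deposited tables gave it a mean normalized count of 4795 without control libraries, and of 12253 and 11703 with them. The tables were normalized separately, so these means compare only roughly.

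**Figure D2:**
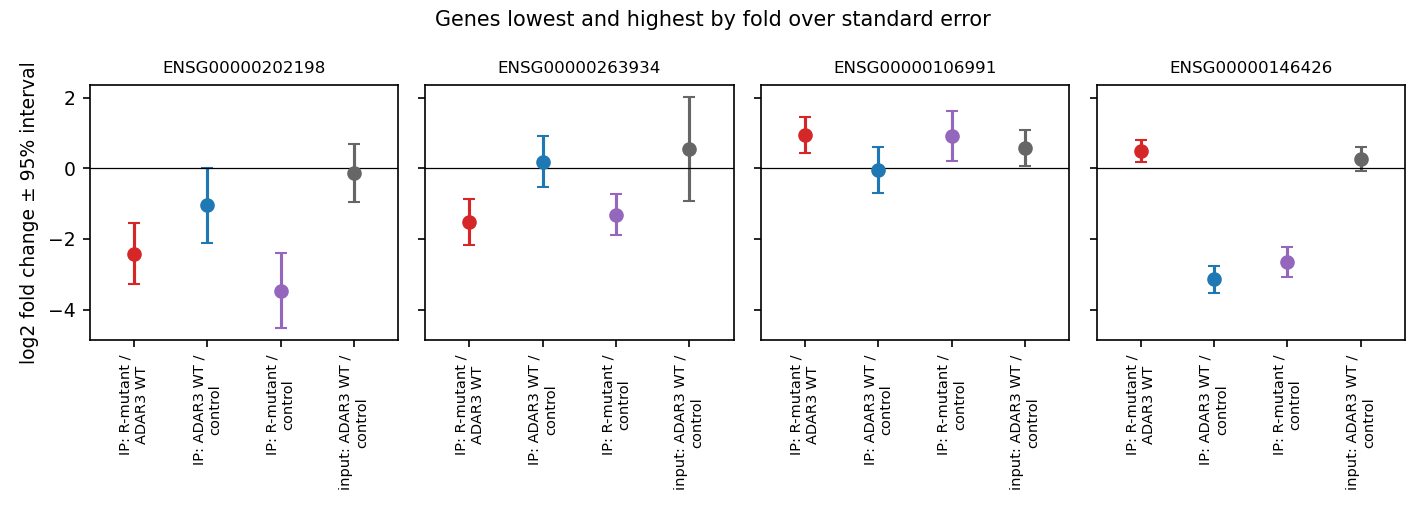
Log2 fold change with its 95% interval (vertical axis) of the 2 lowest and the 2 highest genes by fold change over standard error, in the 3 IP comparisons and in the input comparison of ADAR3 WT with control (horizontal axis). ENSG00000202198 and ENSG00000263934 were lower with the R-mutant, while ENSG00000146426 was far below 0 against the empty vector with either protein.

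The 12 lowest and the 12 highest genes by fold change over standard error extend these values. The 12 lowest had log2 fold changes from -2.41 to -0.79 in the authors' deposited table, with standard errors from 0.20 to 0.50 and mean normalized counts from 107 to 5477. Against the empty vector, the same 12 genes had a median of 0.28 with ADAR3 WT, where 4 were called higher and 1 lower (5.99% and 8.14% of all genes tested there). With the R-mutant their median was -0.79, where 0 were called higher and 3 lower (5.38% and 7.95% of all genes tested there). The 12 highest had log2 fold changes from 0.48 to 1.42, standard errors from 0.16 to 0.54 and mean normalized counts from 59.6 to 4795. Of these, 5 were called lower and 1 higher than the empty vector in ADAR3 WT over control, and 5 lower and 2 higher in R-mutant over control, beside the same shares of all tested genes. The comparisons share libraries, so the sign of the difference between their values is fixed by the choice of genes.

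**Figure D3:**
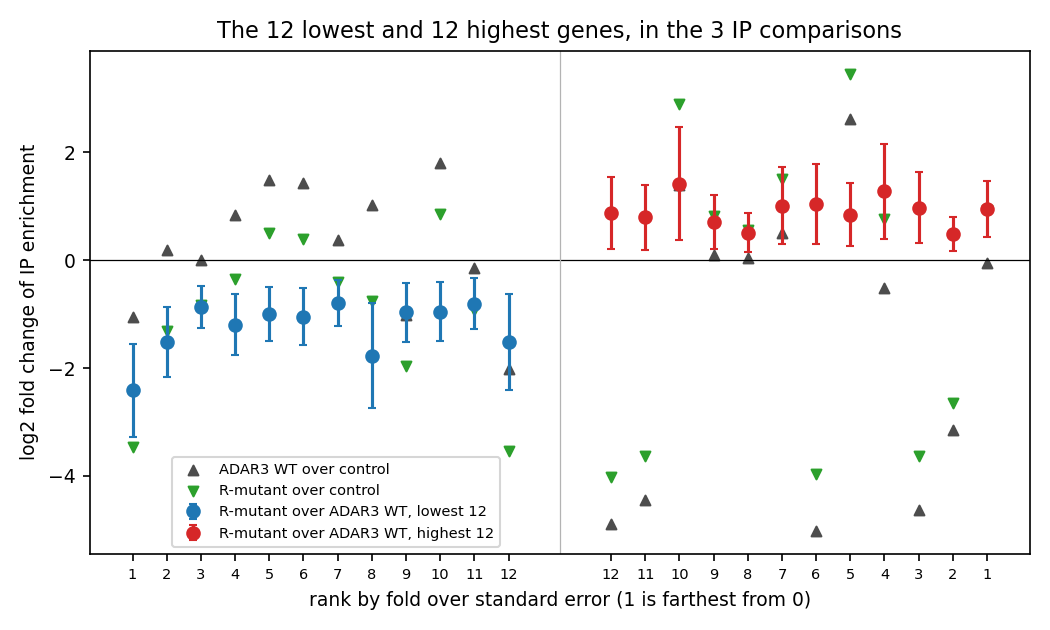
Log2 fold changes of IP enrichment (vertical axis) of the 12 lowest and the 12 highest genes, ordered by fold change over standard error (horizontal axis). Circles with 95% intervals are R-mutant over ADAR3 WT, and triangles are each protein over control. Among the 12 highest genes, 5 lie far below 0 against the empty vector with both proteins.

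The 53 genes lower at an unadjusted p under 0.05 (0.385% of all tested genes were lower at that threshold) had in the authors' deposited table a median log2 fold change of -0.79, and their smallest shift was -0.34. Their values against the empty vector had a median of 0.40 with ADAR3 WT, with 17 called higher and 3 lower (5.99% and 8.14% of all genes tested there). With the R-mutant their median was -0.26, with 3 called higher and 7 lower (5.38% and 7.95%). The count of 3 higher with the R-mutant is near the share of all tested genes. The 53 genes were chosen by low values in R-mutant over ADAR3 WT, which shares libraries with both comparisons against the empty vector. That choice favours high values with ADAR3 WT and low values with the R-mutant. Its part in the counts of 17 higher with ADAR3 WT and 7 lower with the R-mutant was not tested. Between the inputs of ADAR3 WT and control none of the 53 was called (0.289% of all genes tested there), and their median was -0.01. The 21 genes higher at that threshold (0.239% of all tested genes) had a median of 0.84 and reached 1.42. In that input comparison 1 of the 21 was called higher with ADAR3 WT (0.103% of all genes tested there), at a log2 fold change of 4.26, and the median of the 21 was 0.15. The counts at an unadjusted p are descriptions of these genes and not calls.

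Some of the largest fold changes were also the least certain. The lowest log2 fold change of all 13789 genes was -3.26, with a standard error of 1.98 and an interval from -7.14 to 0.61. The third lowest was -1.86 ± 2.04. The highest was 1.42 ± 0.54, on a mean normalized count of 61.8. Of the 25 genes that differed by at least 2-fold, 15 lower and 5 higher genes had an unadjusted p under 0.05. A standard error over 1 was found for 5 genes.

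For most RNAs a large shift lay outside the measured interval. The 95% interval of the fold change lay within a 2-fold difference in both directions for 12850 of the 13789 genes, or 93.2%, against 55.2% of all tested genes. It lay within 1.5-fold for 8437 genes, or 61.2%, against 36.1%. Over all tested genes the counts were 12915 and 8437, so the differences between these shares come from the limit on the mean. The remaining 939 genes had intervals that reached past 2-fold on at least one side.

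Precision depended on the level of the RNA. The 13789 genes were ranked by mean normalized count and cut into 5 equal groups. In the lowest, with a median count of 100.1, the quartiles of the log2 fold change were -0.17 and 0.15, the median standard error was 0.36, and 70.6% of the intervals lay within 2-fold. In the middle one, with a median count of 934, the quartiles were -0.10 and 0.05, the median standard error was 0.21, and 98.9% lay within 2-fold. In the highest, with a median count of 4829, the quartiles were -0.09 and 0.03, the median standard error was 0.19, and 99.4% lay within 2-fold. Within 1.5-fold the shares were 2.61%, 75.8% and 89.9%. The share of genes below 0 was 51.5% in the lowest group and 64.7% in the highest, where the median log2 fold change was -0.03.

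Genes just inside and just outside the limit of 50 had similar values. The 174 tested genes with a mean normalized count from 50 up to 55 had a median absolute log2 fold change of 0.24 and a median standard error of 0.45, and 2 had an unadjusted p under 0.05. The 215 genes from 45 up to 50 had a median absolute log2 fold change of 0.24 and a median standard error of 0.47, and 0 had an unadjusted p under 0.05.

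**Figure D4:**
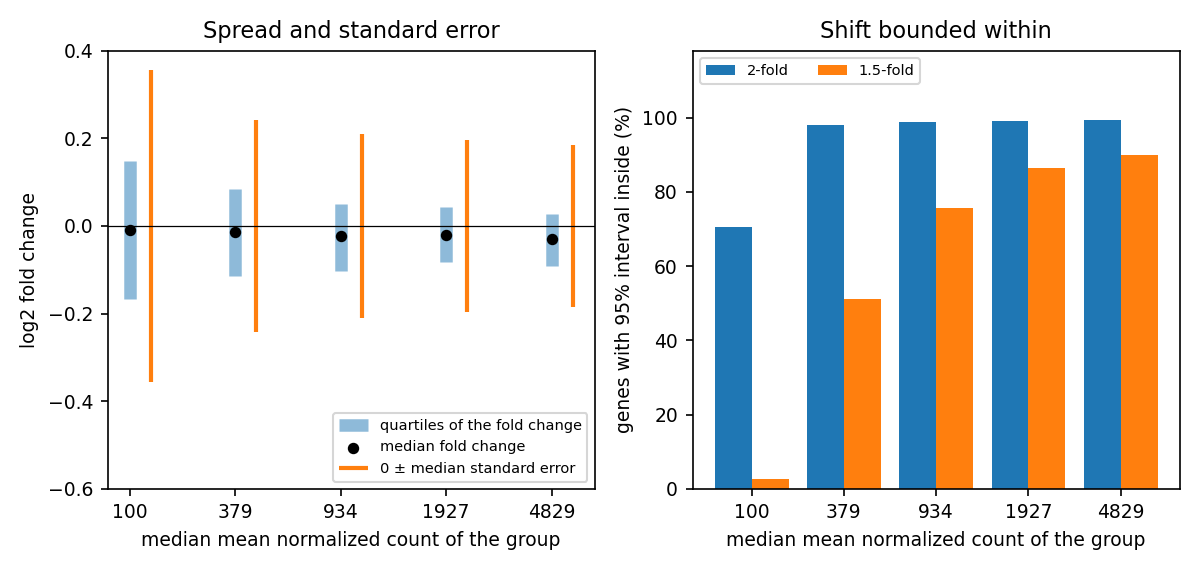
Genes cut into 5 equal groups by mean normalized count (horizontal axes, median count of each group). The left panel plots the median and quartiles of the log2 fold change beside 0 ± the median standard error, and the right panel plots the percentage of genes whose 95% interval lies inside a 2-fold or a 1.5-fold difference, which rises with the count.

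The RNAs recovered more or less with ADAR3 than with the empty vector were then followed in R-mutant over ADAR3 WT. Among 13789 genes, 1175 were called higher and 1641 lower with ADAR3 WT than with the empty vector (normal test, adjusted p under 0.05; 5.99% and 8.14% of all genes tested there). In R-mutant over ADAR3 WT, the 1175 higher genes had a median log2 fold change of -0.03 with quartiles of -0.12 and 0.04. The 1641 lower genes had a median of -0.07 with quartiles of -0.15 and 0.02, and 69.7% of them lay below 0, against 57.4% of all 13789 genes. The comparisons share the ADAR3 WT libraries, and a choice by low ADAR3 WT values favours values above 0 in R-mutant over ADAR3 WT. The 1641 genes had a median mean normalized count of 1164, against 933.9 for all 13789, and the share of genes below 0 was higher among abundant genes. The part of abundance in their median was not tested.

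With the R-mutant, 1048 genes were called higher and 1609 lower than the empty vector (5.38% and 7.95% of all genes tested there). In R-mutant over ADAR3 WT the 1048 higher genes had a median of 0.01 and the 1609 lower genes a median of -0.10. Here the choice by R-mutant values pushes each median in the direction of its group. The 11132 genes called in neither direction with the R-mutant had a median of -0.01.

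The RNAs lowest with ADAR3 WT against the empty vector lay above 0 in R-mutant over ADAR3 WT, the side that their choice favours. With ADAR3 WT, 14 of the 13789 genes were at least 8-fold lower than with the empty vector, and all 14 had a log2 fold change above 0 in R-mutant over ADAR3 WT, from 0.05 to 1.10 around a median of 0.69. Their median against the empty vector was -4.56 for ADAR3 WT and -3.87 for the R-mutant. In 6 of the 14 the 95% interval lay above 0 (0.239% of all tested genes were higher at an unadjusted p under 0.05), and none was called. The part of the choice of genes in that count was not tested. The 824 genes lower by 2-fold to 8-fold with ADAR3 WT had a median of -0.09 instead, and 72.5% of them lay below 0.

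The choice by low ADAR3 WT values favours values above 0, so the same cut was made with the R-mutant, where the choice favours values below 0. There 15 genes were at least 8-fold lower than with the empty vector. In R-mutant over ADAR3 WT, 12 of the 15 lay above 0 and 3 below, around a median of 0.64. The cuts share the control libraries and 12 genes, and those 12 are the ones above 0 in the second cut. The 3 genes found only by the R-mutant cut are the 3 below 0, the side that its choice favours. The second cut thus added no gene above 0 and is not a separate check of the sign. ENSG00000202198 was one of the 3 below 0. The 8-fold limit was set after the values had been seen, and no test was made. The median mean normalized count of the 14 genes was 625 in the table without control libraries and 1335 in the table of ADAR3 WT over control. One of the 14 had an input log2 fold change of 10.09 in ADAR3 WT over control, so its values against the empty vector rest on relatively few control input counts. Input enters the ratio, as read here, as the denominator, and the part of input in its low values was not tested. Another of the 14, with the highest mean normalized count of all, had a standard error of 2.12.

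**Figure D5:**
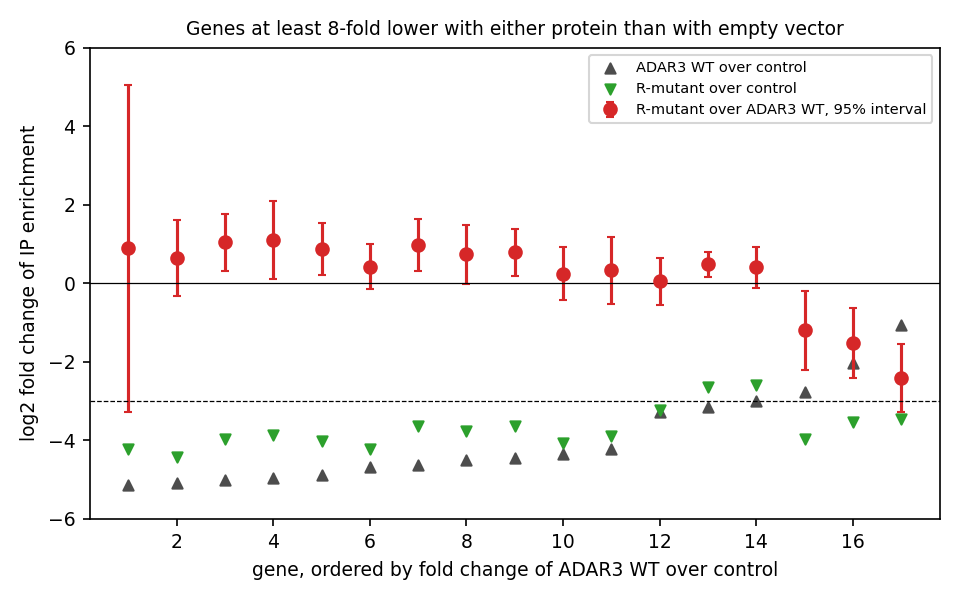
Log2 fold changes of IP enrichment (vertical axis) of the genes at least 8-fold lower than the empty vector with either protein, ordered by their fold change in ADAR3 WT over control (horizontal axis). Circles with 95% intervals are R-mutant over ADAR3 WT, triangles are each protein over control, and the dashed line marks 8-fold lower; 14 of the circles lie above 0 and 3 lie below.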

How the data were processed

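Per the submitters' processing notes, reads were processed with STAR 2.7.7a, featureCounts and DESeq2 on GRCh38. The gene annotation, the version of that last tool and the model formula were not given in the sources used here. Per the labels' protocols, cells were crosslinked at 150 mJ/cm2, ribosomal RNA was depleted, and libraries were amplified for 15 cycles. Per the file headers, the authors deposited a mean signal (mean of normalized counts), a log2 fold change and its error, a test score and its p-values. The 6 per-library columns of the input table match no label and were not used. The labels do not say whether replicates came from separate cultures, so p-values may measure technical spread.

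The likelihood ratio p-values that the authors deposited matched a chi-square distribution (7 degrees of freedom) for 13788 of 13788 genes compared (relative tolerance 0.001). That test covers more than the printed fold change, so fold change over standard error was tested instead, with Benjamini-Hochberg adjustment over all genes holding a deposited adjusted p-value. That the fold change is a ratio of IP over input is not stated in the labels. At an input mean under 10, its slope on the fold change between the inputs of ADAR3 WT and control was 0.48, and that of ADAR3 WT over control was -0.79, the signs that input in the denominator gives. The difference between the 2 tables against control matched the direct fold change within 0.1 for 13785 of 13789 genes, so the 3 IP tables are not independent.

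Genes were named by a rule on fold change over standard error, cut to 2 IDs in each direction because IDs were not paired with symbols. The other parts of that rule, and the symbol lists, were not applied. Members, lists and tests were chosen with earlier results of these data known. The test was tried on simulated data whose errors had the full size of the deposited standard errors. The real values scattered less, with a standard deviation of fold change over standard error of 0.602 among the 13789 genes. That trial therefore does not show how the test behaves at this scatter. Software versions were scipy 1.17.1, pandas 2.3.3, numpy 2.4.6, matplotlib 3.10.9 and Python 3.11.15.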

Additional observations from a re-analysis of the deposited data

How the results depend on the processing

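No paired analysis was possible because no column that holds a library's own values carries a name found in the labels. For the same reason no replicate was left out and no other count model or size factor was run, and RNA classes could not be formed without symbols. By the authors' adjusted p of the likelihood ratio test, 10445 of the 13789 genes (75.7%) passed in the authors' deposited table, against 51.1% of all tested genes. Of the 10445, 6182 lay below 0 and 4263 above, beside 7908 (57.4%) and 5881 of all 13789 genes. That test does not test the sign of this fold change. In 9403 of the 10445 the fold change did not reach 1 standard error. By the unadjusted p of the likelihood ratio test there were 10889. With fold change over standard error rescaled to its robust spread of 0.605, 50 genes were called, 36 lower and 14 higher, and 707 had an unadjusted p under 0.05. Division by 0.605 enlarges every value, so higher counts follow from the setting itself. Shares of all tested genes under the rescaling are not given here. Adjusting over the 13789 genes alone gave 2 called genes, ENSG00000202198 and ENSG00000263934, as did an adjusted p under 0.1. The other settings tried gave 1 called gene: centring on the median, a mean of at least 20 or 100, adjustment over all rows, an adjusted p under 0.01, and a 2-fold minimum. With centring or the other means, 62 to 89 genes had an unadjusted p under 0.05 and 12123 to 12915 intervals lay within 2-fold. There were 13606 after rescaling and 11615 with a 99% interval. ENSG00000202198 passed in the 4 other settings tried for it. By the normal test its adjusted p was 0.00139 with centring and 0.000654 with adjustment over the 13789 genes alone. With the rescaling it was 4.35e-15. The authors' likelihood ratio test, which covers more than this fold change, gave 4.28e-23. Under the rescaling, ENSG00000263934 (adjusted p 5.4e-10), ENSG00000106991 (5.3e-06) and ENSG00000146426 (0.00087) also passed. Medians of genes grouped by their call against the empty vector kept their sign under alternatives chosen after seeing the data, but not their size. They ranged from -0.033 to -0.0097 (higher with ADAR3 WT), -0.070 to -0.047 (lower), 0.0047 to 0.025 (higher with the R-mutant) and -0.105 to -0.066 (lower). Depth per library is unknown.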
